A study of Homo sapiens with 12 samples.

Results

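The insulin-like growth factor (IGF) system was examined through 10 genes, namely the binding proteins IGFBP2, IGFBP3, IGFBP4, IGFBP5 and IGFBP6, the receptors IGF1R and INSR, the adaptors IRS1 and IRS2, and the ligand IGF2, out of 62696 genes in the count tables. These genes were chosen by name, with their levels in the 4 groups of libraries already known, so their changes with TWEAK and their levels in the lines are given as a description. The libraries came from SKBR3 and MDA-MB-453, breast cancer cell lines that the study classes as HER2. TWEAK is the TNF-family ligand of the receptor Fn14, and in each line 3 untreated libraries were set against 3 libraries of cells given TWEAK at 10 ng/ml for 48 h. According to the labels the cells were first starved in Opti-MEM for 8 h and TWEAK was renewed after 24 h, and the labels give the same account for the untreated libraries without saying how those were handled. Each line is a single established culture. The study states that its RNA-seq used 3 biological replicates and that experiments on cell lines were repeated independently on different days, but the labels do not say whether a replicate number marks a day.

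IGF1 and IGF2 circulate and act locally as ligands that are held by a family of secreted binding proteins, which carry them, shield them from the receptor or deliver them at the cell surface. The free ligands activate the tyrosine kinase receptor IGF1R, while insulin acts through the related receptor INSR, and both receptors signal by phosphorylating IRS adaptors that recruit PI3K and so feed AKT and mTOR. In mammary epithelium this system is known as a growth and survival pathway that also cooperates with steroid hormone and HER2 signalling.

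Library totals lay between 24773003 and 35208304 counts, and levels are given as CPM, counts scaled by library size after TMM normalisation over all 12 libraries. Both lines had the keratins of luminal epithelium, with KRT8 at 4948 CPM in untreated SKBR3 and 595 CPM in untreated MDA-MB-453, and ERBB2 stood at 7578 CPM and 890 CPM. CDH1 (E-cadherin) was near 0 in SKBR3, at 0.162 CPM. The cells responded to TWEAK in both lines, since the NF-κB genes NFKB2, RELB and BIRC3 rose in each. TNFRSF12A, the gene of Fn14, rose in SKBR3 (log2 fold change 0.36, edgeR adjusted p = 0.0322). It did not pass in MDA-MB-453 (log2 fold change 0.17, edgeR adjusted p = 0.129). In SKBR3 TWEAK replicate 2 stood apart from the other TWEAK libraries, with a chi-square per degree of freedom of 20.3 and 22.8 against them where the other pairs of that line gave 1.75 to 5.56. In that library the median deviation from the mean of the line was -0.13 on the log2 scale in the top quartile of gene length and 0.13 in the bottom quartile. TWEAK replicate 2 of MDA-MB-453 differed from the other TWEAK libraries by 9.77 and 5.21, against 2.05 to 2.81 in the other pairs. By gene length TWEAK replicate 1 deviated most in that line, at -0.058 in the top quartile and 0.066 in the bottom quartile. TWEAK replicate 2 was at 0.027 and -0.044. Of the 4 basal or myoepithelial markers, 3 of 3 tested rose with TWEAK in SKBR3 (KRT5, TP63 and ACTA2). The summed level of these markers went from 0.787 to 1.11 CPM in untreated libraries to 4.97 to 5.78 CPM with TWEAK. In MDA-MB-453 only 1 of them, TP63, was tested, and it did not pass (log2 fold change 0.32, edgeR adjusted p = 0.343). The sums there were 2.68 to 2.94 CPM untreated and 3.35 to 3.66 CPM with TWEAK, without overlap. The fibroblast markers DCN and LUM had at most 1 count in any library, whereas COL1A1 was present in both lines. The endothelial sum lay between 3.93 and 5.14 CPM in untreated SKBR3 and between 6.43 and 7.72 CPM with TWEAK, where CDH5 rose (log2 fold change 1.26), VWF had a log2 fold change of -0.10 (edgeR adjusted p = 0.783) and KDR had no count. Of the luminal markers in SKBR3 KRT19 rose by 0.32 on the log2 scale (adjusted p = 0.0608) and MUC1 fell by 0.50 (adjusted p = 0.00374), and their sum was 10777 to 11899 CPM untreated and 11906 to 14559 CPM with TWEAK. The steroid receptor ESR1 rose there by 1.33 (adjusted p = 0.0112), and no luminal or steroid receptor marker passed in MDA-MB-453. The part of these markers in the results was not tested.

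The 250 bases before the RefSeq start of 3 binding protein genes (GRCh38.p14) are shown. These 3 had the largest fitted changes with TWEAK in SKBR3 among the genes tested in both lines. In MDA-MB-453 the log2 fold changes of INSR (-0.20) and IRS1 (-0.17) were larger in size than that of IGFBP4 (0.04). IGFBP3 lies at chr7:45921273-45921522 on the minus strand, IGFBP4 at chr17:40443200-40443449 on the plus strand and IGFBP5 at chr2:216695550-216695799 on the minus strand. Each sequence runs 5′ to 3′ on the strand of its gene, and capitals mark matches to the motifs searched.
IGFBP3: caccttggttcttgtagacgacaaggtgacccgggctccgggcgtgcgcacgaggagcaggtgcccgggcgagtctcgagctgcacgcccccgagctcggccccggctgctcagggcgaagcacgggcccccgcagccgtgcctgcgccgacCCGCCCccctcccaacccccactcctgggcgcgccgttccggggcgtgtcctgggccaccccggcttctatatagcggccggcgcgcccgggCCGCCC
IGFBP4: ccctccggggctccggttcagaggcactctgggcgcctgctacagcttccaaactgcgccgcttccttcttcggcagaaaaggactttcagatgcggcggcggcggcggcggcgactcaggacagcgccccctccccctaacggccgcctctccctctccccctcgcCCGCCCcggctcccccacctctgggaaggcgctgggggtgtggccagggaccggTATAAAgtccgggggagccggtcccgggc
IGFBP5: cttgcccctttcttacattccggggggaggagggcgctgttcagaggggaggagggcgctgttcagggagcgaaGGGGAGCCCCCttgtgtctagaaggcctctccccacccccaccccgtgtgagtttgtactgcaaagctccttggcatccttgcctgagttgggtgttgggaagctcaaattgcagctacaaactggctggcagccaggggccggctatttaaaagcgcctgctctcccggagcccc
The motifs, searched on both strands, were the TATA box (TATAAA), the GC box (GGGCGG), the AP-1 site (TGANTCA) and the NF-κB consensus. In IGFBP3 the capitals mark 2 GC boxes on the opposite strand, at 98 to 93 and at 6 to 1 bases before the start. In IGFBP4 they mark a GC box at 83 to 78 bases and a TATA box at 29 to 24 bases. In IGFBP5 they mark 2 overlapping NF-κB matches, at 176 to 167 and 175 to 166 bases before the start. Of 35116 RefSeq promoters, 10.7% held the TATA box in these 250 bases, 42.6% the GC box, 6.57% the AP-1 site and 9.96% the NF-κB consensus. Promoters were matched for 9 of the 10 genes, in 11 entries, and no entry held the AP-1 letters. Outside IGFBP5 the NF-κB consensus was matched in IRS1, in IGFBP6 and in 1 of the IGFBP2 entries. A match is a description of the letters and not a bound site.

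The ligand of the set was barely present. IGF2 (chr11:2129112-2158391, minus strand) had 0 to 4 counts per library in the 12 libraries and was not tested in either line. Its groups summed to 9 counts in untreated SKBR3, 8 with TWEAK, 5 in untreated MDA-MB-453 and 1 with TWEAK, where 3 counts correspond to 0.0818 CPM in the deepest library. Such values cannot show a difference at this depth, and 43.2% of the exonic bases of IGF2 are shared with other genes on its strand. IGF1 and insulin (INS), the remaining ligands, had at most 2 counts in any library. The mRNA of ligands was thus at the limit of detection in both lines, with or without TWEAK.

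Among the binding proteins, IGFBP3 (chr7:45912245-45921874, minus strand), the main carrier of circulating IGFs and a gene with growth-inhibiting roles of its own, was higher with TWEAK in both lines. In SKBR3 the 3 untreated libraries had 10.6, 13.04 and 11.96 CPM and the 3 TWEAK libraries 41.3, 43.5 and 38.7 CPM. The groups did not overlap and the treated libraries lay far above the untreated ones, with a fold of 3.46 (log2 fold change 1.79, SE 0.091). In MDA-MB-453, which started higher, untreated libraries had 35.8, 34.4 and 35.2 CPM and TWEAK libraries 43.8, 44.7 and 42.2 CPM. These groups did not overlap either, but the difference was smaller, with a log2 fold change of 0.31 (SE 0.046) and a fold of 1.24. After TWEAK the levels of IGFBP3 in the lines lay close together, at 41.1 CPM ± 2.40 (SD, n = 3) in SKBR3 and 43.5 CPM ± 1.26 (SD, n = 3) in MDA-MB-453. In bulk libraries, more cells that express a gene and more RNA per cell cannot be told apart.

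IGFBP5 (chr2:216672105-216695549, minus strand), a binding protein that attaches to extracellular matrix and is abundant in mammary epithelium during involution, was higher with TWEAK in SKBR3 and had a lower mean with TWEAK in MDA-MB-453. SKBR3 had 584, 567 and 565 CPM in untreated libraries and 885, 749.6 and 814 CPM with TWEAK, with no overlap and a log2 fold change of 0.51 (SE 0.066). TWEAK replicate 2 was the lowest of the treated libraries and still stood above every untreated one. In MDA-MB-453 the untreated libraries had 1517, 1633 and 1606 CPM and the TWEAK libraries 1292, 1542 and 1389 CPM. There TWEAK replicate 2 reached into the untreated range, and the log2 fold change was -0.17 (SE 0.055), and -0.11 without TWEAK replicate 1. The exons of IGFBP5 share 7.5% of their bases with the antisense RNA DIRC3-AS1 on the opposite strand, and the strand setting of the counting is not given in the sources used here.

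IGFBP4 (chr17:40443450-40457725, plus strand), which restrains IGFs until proteases such as PAPPA cleave it, was a low-abundance gene in SKBR3. Untreated SKBR3 libraries had 26, 22 and 27 counts, or 0.934, 0.911 and 1.11 CPM, and TWEAK libraries 36, 45 and 29 counts, or 1.46, 1.80 and 1.21 CPM. The groups did not overlap, but the highest untreated value, 1.11 CPM, lay close to the lowest treated one, 1.21 CPM, and the log2 fold change of 0.59 had an SE of 0.22. In MDA-MB-453 the gene had 11.2, 11.96 and 11.9 CPM untreated and 11.5, 11.8 and 12.7 CPM with TWEAK, so the groups overlapped (log2 fold change 0.04, SE 0.070).

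IGFBP2 (chr2:216632828-216664436, plus strand), which binds IGF2 preferentially and is often raised in tumours, overlapped between the groups of both lines. SKBR3 had 38.7, 38.6 and 41.6 CPM untreated and 36.2, 43.3 and 34.7 CPM with TWEAK, and the highest of the 6 values was TWEAK replicate 2. MDA-MB-453 had 111, 106 and 104 CPM untreated and 116, 107 and 115 CPM with TWEAK. IGFBP6 (chr12:53097436-53102345, plus strand), the last binding protein of the set and one that favours IGF2, had 0 to 5 counts per library and was not tested.

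**Figure D1:**
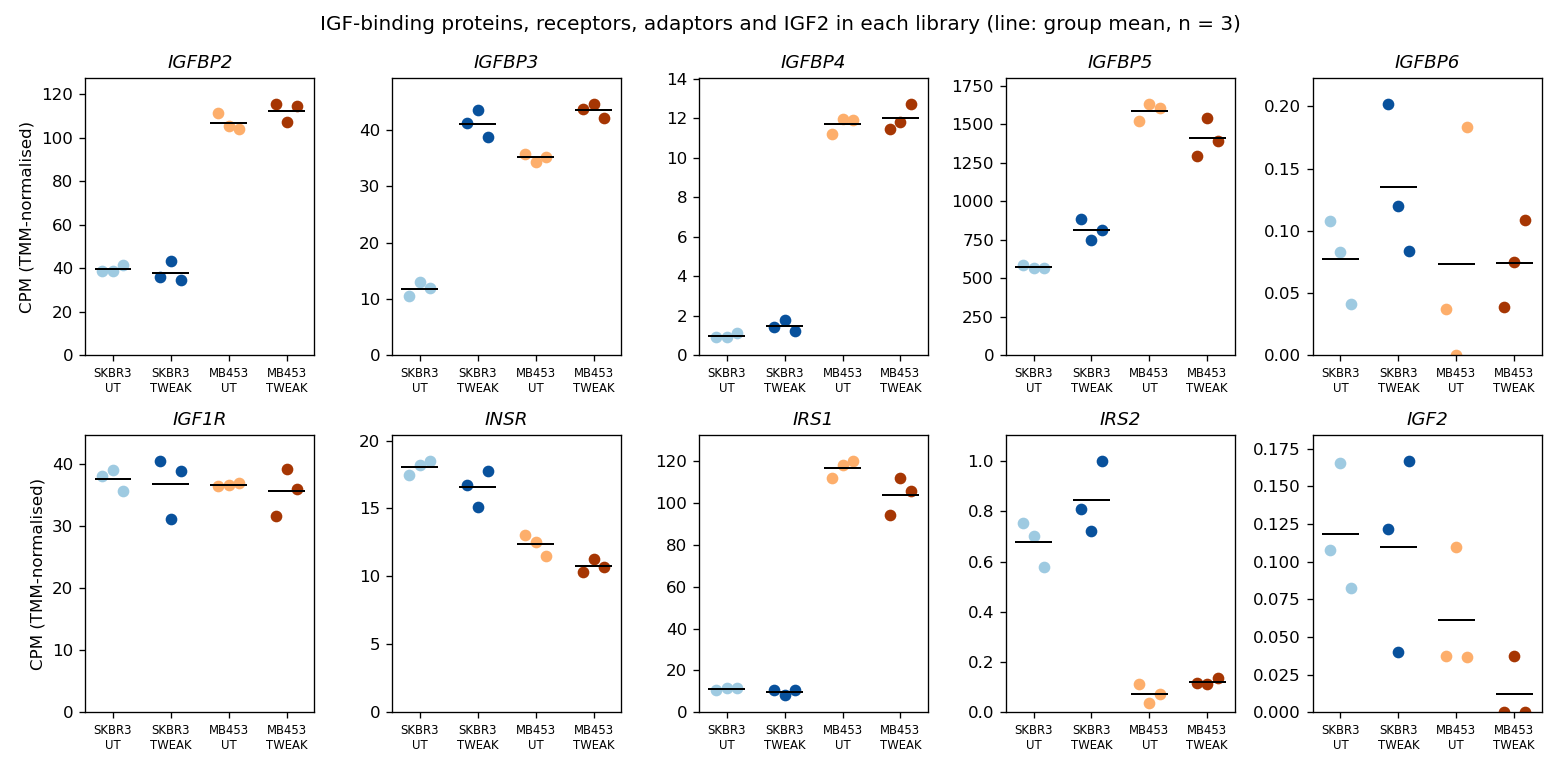
Level in CPM (TMM-normalised, linear axes from 0) of the 10 genes in each of the 12 libraries, by group, UT being untreated and MB453 being MDA-MB-453. Points are libraries in replicate order and lines are group means. IGFBP3 stands at 41.1 CPM with TWEAK against 11.9 CPM untreated in SKBR3, while the groups overlap for IGF1R, and IGF2 and IGFBP6 lie at a few counts.

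The receptors varied little with TWEAK. IGF1R (chr15:98648539-98964530) had 38.1, 39.0 and 35.7 CPM in untreated SKBR3 and 40.5, 31.1 and 38.8 CPM with TWEAK. In MDA-MB-453 it had 36.5, 36.5 and 36.9 CPM untreated and 31.7, 39.1 and 35.9 CPM with TWEAK. Both pairs of groups overlapped, with log2 fold changes of -0.04 (SE 0.095) and -0.04 (SE 0.064). INSR (chr19:7112255-7294414) had 17.4, 18.2 and 18.5 CPM in untreated SKBR3 and 16.7, 15.1 and 17.8 CPM with TWEAK, which overlapped (log2 fold change -0.13, SE 0.082, and -0.067 without TWEAK replicate 2). In MDA-MB-453 it had 13.04, 12.5 and 11.5 CPM untreated and 10.3, 11.3 and 10.7 CPM with TWEAK, so all 3 treated libraries lay below the untreated ones (log2 fold change -0.20, SE 0.073).

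The adaptors differed from each other mainly by line. IRS1 (chr2:226731312-226799820), the adaptor most tied to IGF1R signalling in breast cancer cells, had 10.7, 11.5 and 11.9 CPM in untreated SKBR3 and 10.7, 8.10 and 10.7 CPM with TWEAK. The groups came within rounding of each other without overlapping, and TWEAK replicate 2 was the lowest library. The log2 fold change was -0.21 (SE 0.11), and -0.087 without that library. MDA-MB-453 had 112, 118 and 120 CPM untreated and 93.9, 112 and 106 CPM with TWEAK, where the highest treated library was just under the lowest untreated one (log2 fold change -0.17, SE 0.056, and -0.10 without TWEAK replicate 1). IRS2 (chr13:109752695-109786583), the adaptor better known from insulin action and cell motility, had 14 to 24 counts per SKBR3 library and overlapped between the groups (log2 fold change 0.30, SE 0.25, and 0.16 without TWEAK replicate 3). In MDA-MB-453 it had 1 to 5 counts per library and was not tested. Its groups there did not overlap but nearly met, at up to 0.111 CPM untreated and from 0.112 CPM with TWEAK.

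Set against all genes, 2 of the 8 genes tested in SKBR3 passed an adjusted p of 0.1 in edgeR, IGFBP3 and IGFBP5, both higher. Of 15661 genes tested in that line, 6.60% passed with a higher and 3.82% with a lower level, 10.4% in all. Groups of replicates did not overlap for 4 of the 8 (IGFBP3, IGFBP4 and IGFBP5 higher, IRS1 lower), as for 26.5% of all tested genes. In MDA-MB-453 IGFBP3 alone of 7 tested genes passed, where 1.29% of 14929 genes passed with a higher and 0.208% with a lower level, 1.49% in all. There the groups did not overlap for 3 of the 7 (IGFBP3 higher, INSR and IRS1 lower), against 15.1% of all genes. Since the genes were chosen with these changes known, nothing is read from the counts. Without TWEAK replicate 2 of SKBR3 IGFBP2 was also past the threshold and lower, at a log2 fold change of -0.16. With all 12 libraries in 1 fit IGFBP4 also passed. In MDA-MB-453, leaving out TWEAK replicate 2 took the count from 1 to 4, with IGFBP5, INSR and IRS1 added on the lower side, at a log2 fold change of -0.24 for IGFBP5 and -0.22 for IRS1, and 13.8% of all genes then passed.

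**Figure D2:**
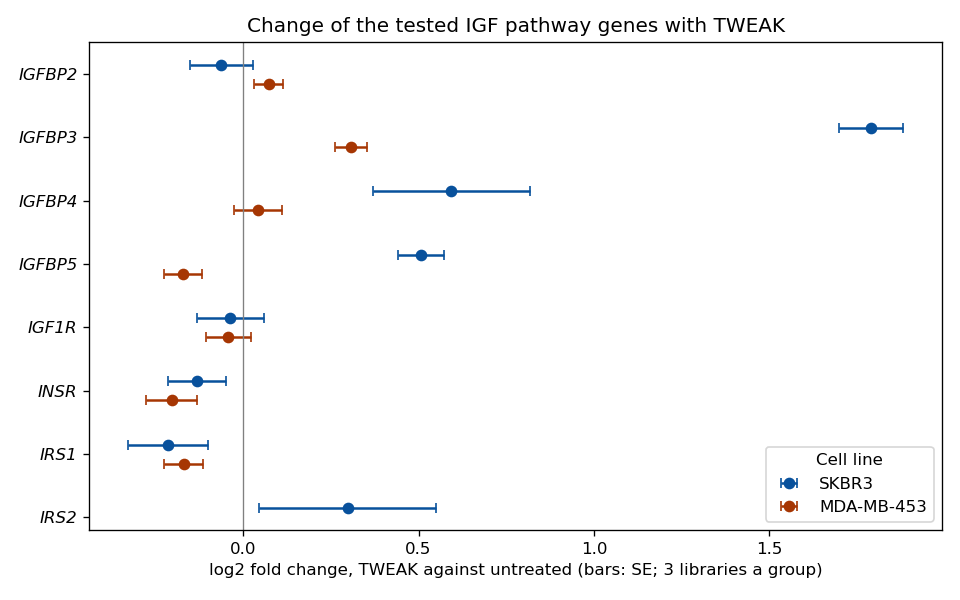
Fitted log2 fold change of TWEAK against untreated libraries (x axis) for the 8 genes tested in SKBR3, by cell line, with bars for 1 standard error and 3 libraries per group. IGFBP3 lies at 1.79 in SKBR3 and 0.31 in MDA-MB-453, IGFBP5 at 0.51 and -0.17, and INSR at -0.13 and -0.20.

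The difference between the changes of the lines, MDA-MB-453 minus SKBR3 on the log2 scale, was -1.49 (SE 0.098) for IGFBP3, -0.68 (SE 0.092) for IGFBP5 and -0.56 (SE 0.21) for IGFBP4. For IGFBP2, IGF1R, INSR, IRS1 and IRS2 it lay between -0.08 and 0.40, the last being that of IRS2 with an SE of 0.60. IGFBP3 and IGFBP5 passed the threshold of the interaction test, as did 3.37% of 17201 genes. Leaving out TWEAK replicate 2 of SKBR3 moved the difference of IGFBP4 to -0.38 and that of IGFBP2 from 0.13 to 0.25, where IGFBP2 also passed the threshold. The difference of IRS2 ran from 0.089 to 0.79 with a library left out, the lowest without untreated replicate 2 of MDA-MB-453 and the highest without its untreated replicate 1.

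Without TWEAK, IGFBP4 and IRS1 were over 10-fold higher in MDA-MB-453 than in SKBR3. MDA-MB-453 had 11.7 CPM ± 0.42 (SD, n = 3) of IGFBP4 against 0.986 CPM ± 0.11 (SD, n = 3) in SKBR3, a fold of 11.8, and 117 CPM ± 4.30 (SD, n = 3) of IRS1 against 11.4 CPM ± 0.58 (SD, n = 3), a fold of 10.3. IGFBP3, IGFBP5 and IGFBP2 were 2.97-fold, 2.77-fold and 2.70-fold higher in MDA-MB-453. INSR was lower there, at 12.4 CPM ± 0.77 (SD, n = 3) against 18.1 CPM ± 0.56 (SD, n = 3). IRS2 had at most 3 counts in each untreated MDA-MB-453 library, and SKBR3 was at least 6.15-fold higher, with the floor set at 3 counts per library. IGF1R differed by -0.04 on the log2 scale (SE 0.088) and its groups overlapped. Of the 8 genes tested, 7 passed the threshold between the untreated lines, but so did 84.2% of all tested genes. The line and anything that differed between the handling or sequencing of the lines cannot be told apart. IGFBP4 lies on chromosome 17, 713.0 kb from ERBB2, and was lower in SKBR3, the line with the higher ERBB2 level. IGFBP2 and IGFBP5 are neighbours on chromosome 2, 7.7 kb apart and transcribed towards each other, and IGFBP2 did not follow IGFBP5 with TWEAK in SKBR3 (log2 fold changes -0.06 and 0.51).

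Per kb of exonic length, IGFBP5 was the most abundant gene of the set in every group, at 88.5 CPM per kb in untreated SKBR3, 126 with TWEAK, 245 in untreated MDA-MB-453 and 218 with TWEAK. It made up 88.5% ± 0.58 (SD, n = 3) of the summed level per kb of the 5 binding proteins in untreated SKBR3 and 84.8% ± 1.37 (SD, n = 3) in MDA-MB-453 with TWEAK, the highest and lowest of the group means. The share of IGFBP3 was 2.29% to 2.88% in untreated SKBR3 libraries and 5.85% to 7.02% with TWEAK, and 2.61% to 2.89% against 3.54% to 4.01% in MDA-MB-453. The share of IGFBP2 in SKBR3 was 8.05% to 8.83% untreated and 4.94% to 6.75% with TWEAK, without overlap, while its own level overlapped. The summed level of the binding proteins per kb was 99.2 to 101 CPM in untreated SKBR3 libraries and 135 to 154 with TWEAK, and 271 to 288 against 239 to 276 in MDA-MB-453. In untreated SKBR3 the order went on with IGFBP2, then IGF1R and IGFBP3, whose values overlapped, then INSR, IRS1 and IGFBP4. With TWEAK IGFBP3 overlapped IGFBP2 at the place behind IGFBP5. In untreated MDA-MB-453 the order was IGFBP5, IGFBP2, IRS1, IGFBP3, IGFBP4, IGF1R and INSR, with no overlap between neighbours, and with TWEAK IRS1 and IGFBP3 overlapped. IGF1R mRNA exceeded INSR mRNA per kb in all groups, with a mean ratio of 1.62 in untreated SKBR3, 1.72 after TWEAK, 2.31 in untreated MDA-MB-453 and 2.57 after TWEAK.

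**Figure D3:**
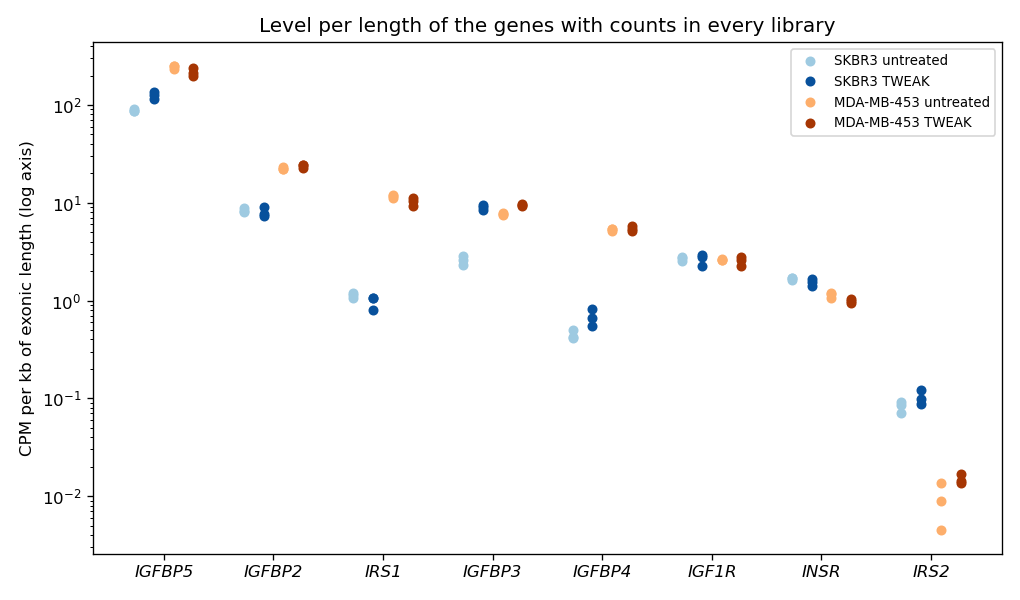
Level per kb of exonic length (log axis) of the 8 genes with counts in every library, with 1 point per library and the groups in colour. IGFBP5 is the highest in every group, IRS1 and IGFBP4 stand 10.3-fold and 11.8-fold apart between the untreated lines, and the values of IGF1R overlap.

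The genes whose levels varied most like those of 3 binding proteins were sought over the 12 libraries, with each line centred on its own mean, among 11648 genes. IGFBP3 varied most like CXCL16, a chemokine (Pearson r = 0.997), IL27RA, a cytokine receptor (0.992), and ICAM1, an adhesion molecule (0.992). IGFBP4 varied most like MAP2K3 (0.972), CSNK1G2 (0.961) and CTXN1 (0.957), and IGFBP5 most like LPIN1 (0.977), PPFIBP2 (0.972) and MAP4 (0.970). These are descriptions over libraries that share 2 lines and 1 treatment.

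Around these 10 genes, 97 further genes of the insulin and IGF pathway were listed, in 7 lists. The lists were drawn up with earlier results of these data known, so the shares of their genes are given as a description. In SKBR3 79 of them were tested and 18 passed the threshold, 11 rising and 7 falling, which is 22.8% of those tested beside 10.4% of all genes. Their median log2 fold change was -0.01, as was that of all genes tested. In MDA-MB-453 80 were tested and 1 passed, in edgeR and also in DESeq2, beside 1.49% of all genes, and 10 had an unadjusted p under 0.05. The interaction of line and TWEAK passed for 10 of 82 listed genes, 12.2% beside 3.37% of all genes. Leaving out TWEAK replicate 2 of SKBR3 kept these 18 calls and took the count to 31, where 17.4% of all genes passed. Leaving out TWEAK replicate 2 of MDA-MB-453 kept the 1 call and took the count to 18, of which 15 fell. There 13.8% of all genes passed. Both counts were thus lower with these libraries in the fit.

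Of the other ligands, receptors and binding proteins (8 genes, of which 2 were tested in SKBR3), IGFBP7 rose in that line. This distant relative of the binding proteins, which binds IGFs weakly, had 3.11 CPM ± 0.52 (SD, n = 3) untreated and 7.15 CPM ± 0.54 (SD, n = 3) with TWEAK, a log2 fold change of 1.19 (SE 0.14, edgeR adjusted p = 0.000279). In MDA-MB-453 it had at most 3 counts in any library and untreated SKBR3 was at least 28.2-fold higher. Its exons share 13.5% of their bases with POLR2B on the opposite strand. IGF2R, the receptor that clears IGF2, had 303 CPM in untreated SKBR3 and 164 CPM in untreated MDA-MB-453, and its change with TWEAK did not pass the threshold in either (log2 fold changes -0.17 and -0.11, edgeR adjusted p = 0.367 and 0.584). Without TWEAK replicate 2 the change of IGF2R in SKBR3 was -0.046, while that in MDA-MB-453 was -0.20 and passed (adjusted p = 0.00338), whereas without TWEAK replicate 1 of MDA-MB-453 it was -0.040. INSRR, IGFBP1, IGFALS and IGFBPL1 were not tested in either line.

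The IGFBP proteases and stanniocalcins (9 genes, 4 tested in each line) held the largest change of the listed genes. STC1, a secreted inhibitor of the protease PAPPA, rose in SKBR3 from 0.733 CPM ± 0.28 (SD, n = 3) to 3.10 CPM ± 0.46 (SD, n = 3), a log2 fold change of 2.04 (SE 0.25, edgeR adjusted p = 0.000331). MDA-MB-453 held far more of it, 80.4 CPM ± 4.61 (SD, n = 3) untreated and 77.7 CPM ± 7.01 (SD, n = 3) with TWEAK, and the log2 fold change there was -0.05 (SE 0.061). The changes of the lines differed by -2.09 (SE 0.24, adjusted p = 5.24e-05 in the interaction test). STC2, the other stanniocalcin, had 1.26 CPM in untreated SKBR3 and 0.762 CPM with TWEAK, groups that did not overlap (log2 fold change -0.72, SE 0.25, edgeR adjusted p = 0.128). It passed there with all 12 libraries in 1 fit and with the correction for GC content and length that was chosen after seeing the data. PAPPA itself had at most 4 counts in any library. CTSD, the lysosomal protease cathepsin D, was the gene that rose in MDA-MB-453, by 0.17 on the log2 scale (SE 0.041, edgeR adjusted p = 0.0837), and it lost that call under 6 of 13 alternatives. In SKBR3 its log2 fold change was 0.29 (SE 0.11, adjusted p = 0.162), its groups did not overlap and it passed under 4 of 13 alternatives, among them the fit without TWEAK replicate 2, where the change was 0.14, and the difference between the lines did not pass (adjusted p = 0.806). Of the IGF2 mRNA-binding proteins none was tested in SKBR3 and 1 in MDA-MB-453, with no call.

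Inhibitors of the receptors and IRS proteins moved in both directions in SKBR3, where 2 of 15 rose and 3 fell, 33.3% beside 10.4% of all genes. These 5 became 8 without TWEAK replicate 2, where 17.4% of all genes passed. PTPRF, a receptor phosphatase known to act on the insulin receptor, rose from 1383 CPM ± 21.8 (SD, n = 3) to 2472 CPM ± 193 (SD, n = 3), with a log2 fold change of 0.83 (SE 0.065, edgeR adjusted p = 1.25e-05). SOCS1, which targets IRS proteins and JAK kinases, rose by 0.90 on the log2 scale (SE 0.11, adjusted p = 0.000492), from 6.10 to 11.4 CPM. SOCS2, a feedback inhibitor of growth hormone signalling, fell from 2.07 to 1.02 CPM (log2 fold change -1.02, SE 0.20, adjusted p = 0.0102). Its relative CISH fell from 52.8 to 39.5 CPM. NEDD4, a ubiquitin ligase, fell by 0.37 on the log2 scale (SE 0.11, edgeR adjusted p = 0.0802), a call that was lost when any one of the untreated libraries was left out. None of the 15 passed in MDA-MB-453 in edgeR (3 had an unadjusted p under 0.05), where PTPRF stood at 682 and 632 CPM and SOCS2 at 25.9 and 24.4 CPM. Without TWEAK replicate 2 of that line, 3 passed there, PTPRF, NEDD4 and ENPP1, beside 13.8% of all genes. PTPRF, SOCS1, SOCS2 and CISH passed the interaction test.

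Of the receptor adaptors, 3 of 14 tested passed in SKBR3, 21.4% beside 10.4% of all genes. SH2B3, an adaptor that damps cytokine receptor signalling, rose from 0.961 to 2.20 CPM (log2 fold change 1.19, SE 0.26, edgeR adjusted p = 0.0169). DOK4 rose by 0.32 on the log2 scale (SE 0.088, edgeR adjusted p = 0.0542), a call that was lost on leaving out TWEAK replicate 3 or either of the untreated replicates 1 and 2. GAB2, a docking protein that recruits PI3K, fell from 7.30 to 4.77 CPM (log2 fold change -0.62, SE 0.11, adjusted p = 0.00572). IRS4, a relative of IRS1, had at most 2 counts in any SKBR3 library and 22.2 CPM ± 1.82 (SD, n = 3) in untreated MDA-MB-453, at least 187-fold higher against the floor of 3 counts per library. In MDA-MB-453 none of 15 receptor adaptors tested passed in edgeR. Without TWEAK replicate 2 of that line 4 passed, where 13.8% of all genes did.

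Of 27 PI3K, AKT and mTOR genes tested in SKBR3, 1 rose and 2 fell, 11.1% beside 10.4% of all genes. These 3 became 7 without TWEAK replicate 2, where 17.4% of all genes passed. They became 1 without untreated replicate 1 or untreated replicate 2, where 6.11% and 5.76% of all genes passed. INPP4B, a phosphatase that removes a PI3K product, rose from 6.79 to 13.3 CPM (log2 fold change 0.96, SE 0.17, edgeR adjusted p = 0.00392), while PIK3R3, a regulatory subunit of PI3K, and RPTOR, a part of mTORC1, fell by 0.26 and by 0.22 on the log2 scale (adjusted p = 0.0221 and 0.0525). Both of these calls were lost without untreated replicate 1 or 2, and that of RPTOR also without untreated replicate 3 or TWEAK replicate 1. Of FOXO factors and genes known as their targets, 4 of 17 rose and 1 fell, 29.4% beside 10.4% of all genes. These 5 became 10 without TWEAK replicate 2, where 17.4% of all genes passed. CCNG2, an unconventional cyclin, rose from 68.6 to 132 CPM (log2 fold change 0.93, SE 0.076, adjusted p = 1.66e-05). GADD45A, a stress-response gene, rose by 0.57, KLF6, a transcription factor, by 0.51 and PDK4, a kinase that restrains pyruvate oxidation, by 0.49. SESN3, a sestrin, fell from 4.11 to 2.55 CPM. In MDA-MB-453 no gene of these 2 lists passed in edgeR (5 and 1 had an unadjusted p under 0.05), with median log2 fold changes of -0.04 and 0.00. Without TWEAK replicate 2 of that line, 8 PI3K, AKT and mTOR genes and CCNG2 passed there, beside 13.8% of all genes. Of the genes that passed in SKBR3, the difference between the lines passed for CCNG2, GADD45A and KLF6 and did not for GAB2, INPP4B and SESN3 (adjusted p = 0.117, 0.174 and 0.256). Nor did it for DOK4, NEDD4, PIK3R3 and RPTOR (adjusted p = 0.429, 0.522, 0.509 and 0.834 in the interaction test). The difference of INPP4B passed under 4 of 18 alternatives, DESeq2 among them, and that of GAB2 under 3. For IGFBP7 and PDK4 the low counts in MDA-MB-453 do not allow the comparison.

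**Figure D4:**
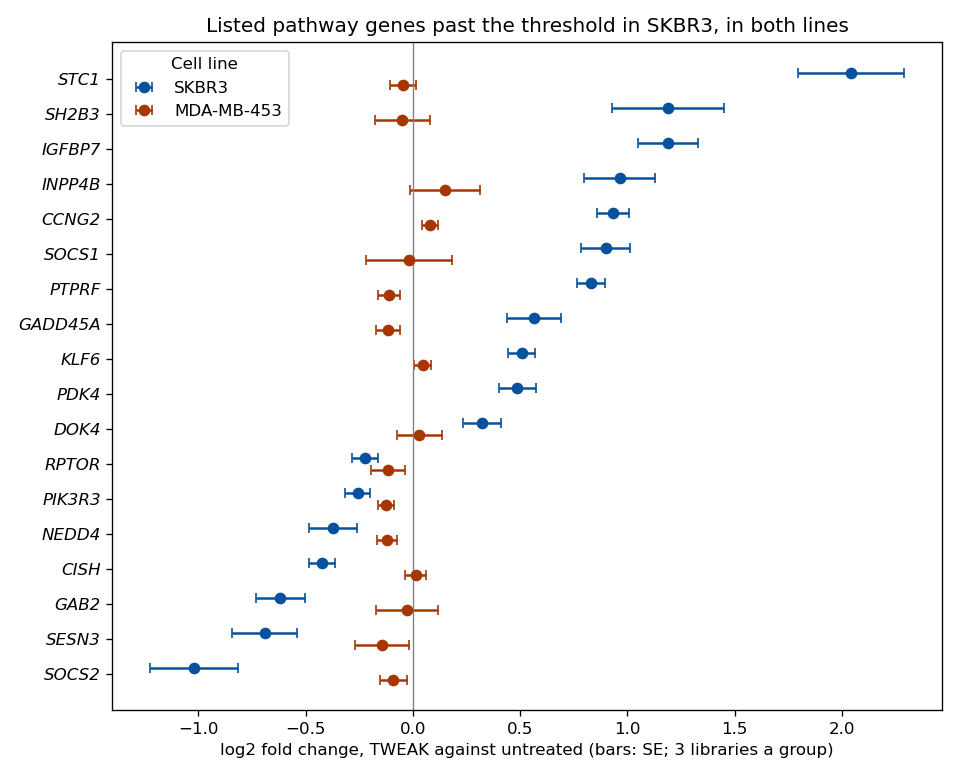
Fitted log2 fold change of TWEAK against untreated libraries (x axis, bars for 1 standard error, 3 libraries per group) for the 18 listed pathway genes past the threshold in SKBR3, with the value in MDA-MB-453 where tested. STC1 lies at 2.04 and SOCS2 at -1.02 in SKBR3, whereas the 16 of these genes tested in MDA-MB-453 lie between -0.14 (SESN3) and 0.15 (INPP4B) there, limits that move to -0.28 for SESN3 without TWEAK replicate 3 and to 0.26 for INPP4B without TWEAK replicate 1 of that line.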

How the data were processed

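Poly-A RNA was sequenced. The submitters' processing notes list Trimmomatic, STAR, featureCounts, DESeq2 and the build hg38. The values deposited by the authors are raw counts per gene, not normalised. Versions, the strand setting, the handling of multiple hits and the annotation release are not given in the sources used here. Of 62696 identifiers, 61918 matched GENCODE 44 with their version and 62625 without it, and symbols, positions and exonic lengths came from that release.

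Each line was fitted on its own 6 libraries, and the comparison of the untreated lines and the interaction of line and TWEAK on all 12, with edgeR 4.0.16 in R 4.3.3 (filterByExpr, TMM, quasi-likelihood, two-sided), with Benjamini-Hochberg adjustment over all tested genes and calls at 0.1 or less. The default prior count of edgeR was kept. The floor was 3 counts per library and covers counting error only. Promoters came from RefSeq (GRCh38.p14). Likeness used log2(CPM + 0.1) of genes with a mean of at least 1 CPM in both lines.

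The 10 genes and the lists were chosen with earlier results of these data known. The text names all 10 genes, the listed genes past the threshold whose groups of replicates do not overlap (at most 12 per line, by size of change) and the list of other ligands, receptors and binding proteins. CISH, NEDD4, DOK4, PIK3R3, RPTOR, PDK4, PIK3CD, ENPP1, GSK3B, MTOR, RPS6KB2, PAPPA, STC2 and IRS4 were named after their values were seen. The alternatives tried were the scaling of DESeq2 inside edgeR, DESeq2 1.42.0 itself, no filter, at least 10 counts in every library, an adjusted p of 0.05, the replicate number as a block, other sets of libraries in the fit and each library left out in turn. A correction for GC content and length was added after seeing the data. On simulated counts with 200 changed genes and 5 draws, 92.5% of changes of at least 1 on the log2 scale were recovered in SKBR3. The share was 95.5% in MDA-MB-453, 89.3% between the untreated lines and 76.8% for the interaction. Of changes under 1, 53.1% were recovered in SKBR3, 67.5% in MDA-MB-453, 53.1% between the untreated lines and 33.3% for the interaction. Unchanged genes made up 12.4%, 11.7%, 12.6% and 10.9% of the calls, in the same order.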

Additional observations from a re-analysis of the deposited data

Results flagged for a closer look

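The change with TWEAK differed between the lines, by the interaction test in edgeR with Benjamini-Hochberg adjustment over all genes, for 10 of the 82 listed pathway genes tested, beside 3.37% of all genes. Each value is a difference of log2 changes, with SKBR3 subtracted from MDA-MB-453. It was -2.09 for STC1, -1.24 for SH2B3, -0.95 for PTPRF, -0.92 for SOCS1, -0.89 for PIK3CD, -0.86 for CCNG2, -0.69 for GADD45A and -0.47 for KLF6. It was 0.92 for SOCS2 and 0.43 for CISH. STC1, SH2B3, PTPRF, SOCS1, CCNG2, GADD45A, KLF6, SOCS2 and CISH passed the threshold in SKBR3 and not in MDA-MB-453, where PTPRF (log2 fold change -0.18) and CCNG2 (adjusted p = 0.0975) passed without TWEAK replicate 2. PIK3CD, a catalytic subunit of PI3K, passed in neither line (log2 fold change 0.25 in SKBR3, -0.64 in the other line), and its interaction was past the threshold (adjusted p = 0.0719) under 9 of 18 alternatives. Within SKBR3 it passed with all 12 libraries in 1 fit and without TWEAK replicate 2, and within the other line without TWEAK replicate 2 (log2 fold change -0.79, adjusted p = 0.0899). That of SOCS1 was lost under 3 of 18, all of which left out a library of MDA-MB-453.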

How the results depend on the processing

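Among the listed genes in SKBR3, the count of 18 became 28 with all 12 libraries in 1 fit, 29 with the GC and length correction that was chosen after seeing the data, and 14 to 31 when a library was left out, the highest being without TWEAK replicate 2. In MDA-MB-453 the count of 1 became 2 with no filter on low counts, 6 with the replicate block, 0 with all 12 libraries in 1 fit, 2 with the GC and length correction and 0 at an adjusted p of 0.05, and it was 0 to 18 when a library was left out. The count of members past the threshold in MDA-MB-453 went from 1 to 3 with no filter and to 3 with the replicate block, where IGFBP5 and IRS1, both lower with TWEAK, joined IGFBP3 under each, and to 1 to 4 with a library left out. Same-numbered libraries of SKBR3 did not deviate together in every pair (r from -0.233 to 0.169). Untreated replicate 3 of that line correlated best with TWEAK replicate 2 (r = 0.346). In MDA-MB-453 r was positive in every same-numbered pair (0.0239 to 0.133), and each library correlated best with its own number. The labels tie no number to a day, so the numbers were not taken to pair the samples in either line. Whether they do so in MDA-MB-453 was not tested. The replicate block moved the share of all genes past the threshold from 10.4% to 7.73% in SKBR3 and from 1.49% to 5.99% in MDA-MB-453. Without TWEAK replicate 2 that share was 17.4% and 13.8%, and with the GC and length correction 17.3% and 2.13%. For the interaction it went from 3.37% to 6.54% without TWEAK replicate 2 of SKBR3. With the replicate block 16 listed genes passed in SKBR3 (NEDD4 and RPTOR lost; in the other line GSK3B, MTOR, PIK3R3, PTPRF and RPS6KB2 were gained) and 9 in the interaction test, and the members' count stayed at 2 in SKBR3. Signs near 0 changed when a library was left out for the members IGFBP2 (-0.16 to 0.0030) and IGF1R (-0.11 to 0.074) in SKBR3, for IGF1R (-0.11 to 0.030) and IGFBP4 in MDA-MB-453 (for IGFBP4 also with the GC and length correction, at -0.0091) and for the interactions of IGF1R (-0.10 to 0.063) and IRS1 (-0.070 to 0.11). Among the listed genes they changed in MDA-MB-453 for CISH (-0.017 to 0.052), GAB2 (-0.11 to 0.061), SOCS1 (-0.15 to 0.099) and STC1 (-0.098 to 0.021), and for the interaction of CTSD (-0.20 to 0.034). The 12 listed genes named for SKBR3 by size of change kept their direction and call in all 13 alternatives. Depth limits IGF2 and IGFBP6 in both lines and IRS2 in MDA-MB-453, where a few counts cannot show a difference.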
